A study of Mus musculus with 20 samples.

Results

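Knee joints that had received mesenchymal stromal cells (MSC) activated through the STING pathway were compared with knee joints that had received needle insertion alone. The comparison takes 10 of the 20 sequenced joints, 5 STING-MSC and 5 control, chosen by their sample labels, and all 14793 genes of the expression table. Every mouse was a 12-week-old male C57BL/6Nci animal with surgical destabilization of the medial meniscus (DMM) of the right knee, so the controls carried the same joint injury and were neither unoperated nor injected with fluid or cells. The STING-MSC were adipose-derived MSC from 1 pool of age-matched male donors, incubated for 2 h with 10 µg/mL of 2′3′cGAMP, and 250000 cells were injected in weeks 3 and 5. Of the 10 mice in each group, 5 were sequenced. The joint was taken whole, with cartilage, synovium, capsule and the adjoining subchondral bone of femur and tibia. The methods of the study place collection 8 weeks after surgery and its results text 24 h after injection, so the interval from the last injection to collection is uncertain.

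DMM cuts the ligament that anchors the medial meniscus. The unstable joint then develops osteoarthritis, in which cartilage is lost, the synovium is inflamed and thickened, and fibroblasts of the synovium and capsule deposit collagen-rich matrix. STING is a receptor on the endoplasmic reticulum that is switched on by cyclic GMP-AMP (cGAMP), the messenger that the enzyme cGAS makes on sensing DNA in the cytosol. Once active, it recruits the kinase TBK1, which activates the transcription factor IRF3 and with it type I interferon genes. The agonist was given to the cells before injection, so the joint itself met cGAMP-treated cells.

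The values are normalized counts, the reads of a gene divided by a size factor for each joint. Joints held 28979778 to 52529973 reads in the control group and 27955496 to 35561322 in the STING-MSC group (exact permutation test, two-sided, p = 0.278). Fold changes are log2 differences of the group means of log2(normalized count + 1), with their standard error (SE), and understate the change of genes with few reads. They were tested with limma across all genes, and single genes were also compared by exact permutation of the 10 joints (two-sided). A gene is called lower or higher at an unadjusted p of 0.05 or less with a fold change of at least 2. P-values measure the spread between these mice. The joints carried the defining genes of their labelled tissues, among them Col2a1 of cartilage (7118 to 81465 in control and 9321 to 42253 in STING-MSC joints) and Prg4, the lubricin of the synovial lining (150984 to 542072 and 40339 to 196213). They also carried muscle and marrow RNA. The summed count of 35 muscle contractile genes was 2349386 to 3441299 in control and 1991369 to 4913667 in STING-MSC joints. Krt5, a keratin of basal epidermis, was measured at 889, 8.46, 0, 40.2 and 0 in control replicates 1 to 5 and at 0 to 2.62 in STING-MSC joints, so control replicate 1 stood apart in this gene, which was chosen after its values were seen. Of 30 keratin and epidermis genes 0 were called, and their median was −1.26. In whole-joint RNA, fewer cells of a type and less RNA per cell cannot be told apart.

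After STING-MSC, 264 genes were lower (1.78% of those tested) and 41 were higher (0.277%), so 86.6% of the called genes were lower. The lower genes included 16 collagens and other matrix genes of fibrous tissue, the immediate-early genes Egr1, Fos and Ccn1 and single genes such as Cyp7b1, Wnt7b and Syt17. The higher genes were mostly weakly expressed and included the chemokine receptor Cxcr1 and the chemokines Cxcl13 and Ccl8. Without the fold requirement the balance was close to even, with 841 genes lower (5.69%) and 967 higher (6.54%) at an unadjusted p of 0.05 or less. The excess of lower genes thus lay among the large changes, since 577 lower and 926 higher genes had a change under 2-fold. The median log2 fold change over all genes was 0.0078. Among lower genes, 77 had a mean normalized count of at least 1000 in control joints, and 0 of the 41 higher genes reached this in STING-MSC joints. Quantile normalization gave 218 lower and 82 higher genes and moved the lower share to 72.7%.

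**Figure D1:**
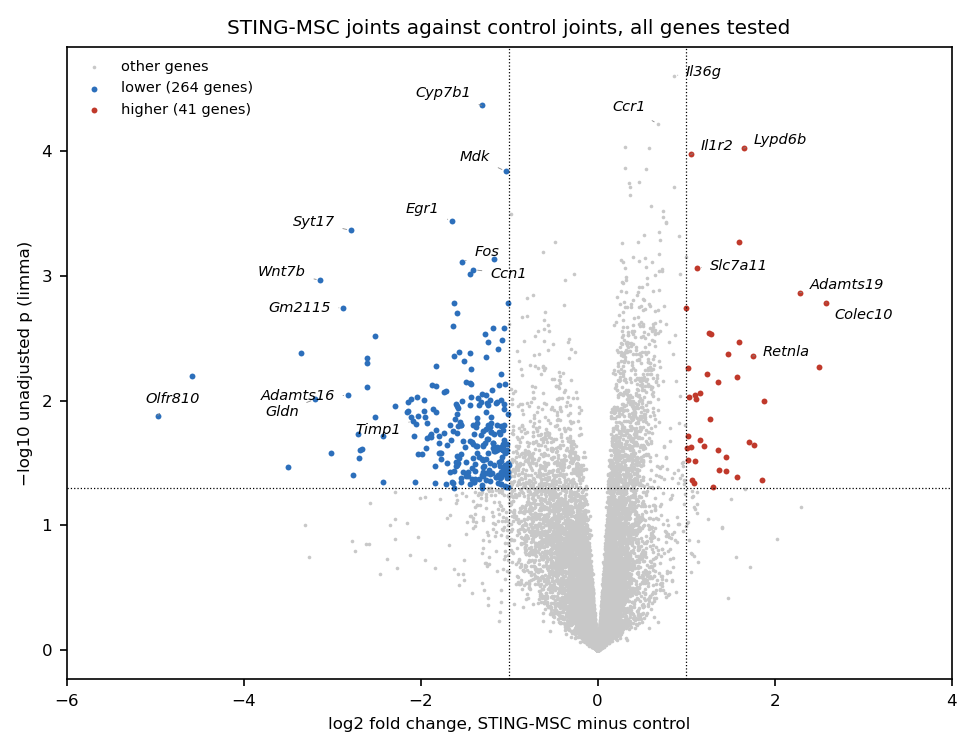
The log2 fold change between STING-MSC and control joints (horizontal axis) against −log10 of the unadjusted limma p-value (vertical axis) for 14793 genes, 1 point per gene, with dotted lines at the threshold in each direction. The 264 lower genes in blue reach a log2 fold change of −4.97, and the 41 higher genes in red reach 2.58.

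At a false discovery rate (FDR) of at most 0.05, limma called 0 genes, with 1808 genes at an unadjusted p of 0.05 or less and a smallest FDR of 0.208, shared by 14 genes. On the reads recovered from the normalized counts, edgeR called 0 genes and DESeq2 called 85 at that FDR. Without control replicate 1, limma called 4 genes, Il36g, Ccr1, Il6ra and Il1r2 (the third chosen after its values were seen). No single gene below therefore passed correction over all genes in the limma fit with all joints, and the counts describe groups of genes at an unadjusted threshold. All 5 STING-MSC joints lay below all 5 control joints for 183 genes (1.24%) and above them for 138 genes (0.933%).

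The lower genes did not differ evenly over the control joints. For 223 of the 264 (84.5%), control replicates 3 and 4 were the 2 highest control joints, against 26.0% of all genes. The median over the lower genes of the count relative to the gene's control mean was 0.463, 0.774, 1.417, 1.757 and 0.499 in control replicates 1 to 5. In STING-MSC replicates 1 to 5 it was 0.371, 0.395, 0.338, 0.381 and 0.186. Control replicates 1 and 5 were thus much nearer to the STING-MSC joints than to control replicates 3 and 4, and STING-MSC replicate 5 was the lowest of its group for 199 of the 264 genes and for 4983 of all 14793. The 2 groups did not overlap for 90 lower genes (34.1%). Without control replicates 3 and 4, a comparison added after the values were seen, 34 genes were lower (0.23%) and 27 higher, and 97 genes (0.656%) were lower and 370 (2.5%) higher at an unadjusted p of 0.05 or less. All 264 lower genes kept a negative sign there, with their median log2 fold change moving from −1.37 to −0.86, and 20 of them stayed past the threshold. Leaving out control replicate 3 alone left 137 lower genes, control replicate 4 alone 97 and STING-MSC replicate 5 alone 127, while leaving out control replicate 1 gave 406. Values without control replicates 3 and 4 are therefore given beside those of all joints for the gene lists with at least 3 called genes.

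**Figure D2:**
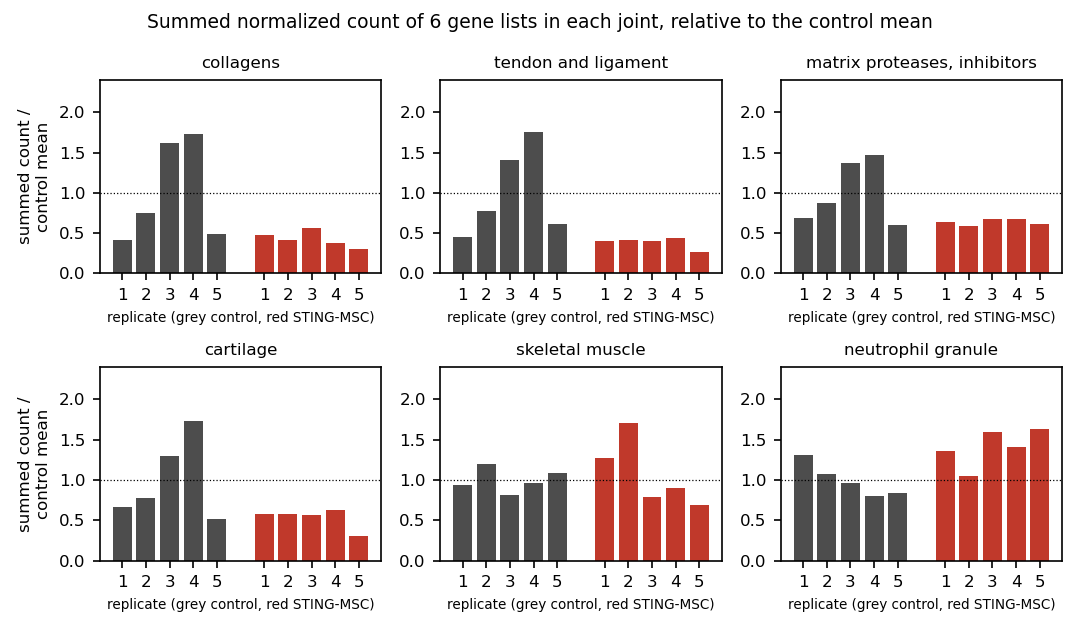
Summed normalized counts of 6 gene lists in each joint, divided by the mean of the 5 control joints (dotted line at 1), with control replicates 1 to 5 in grey and STING-MSC replicates 1 to 5 in red. For the collagens, control replicates 3 and 4 stand above every other joint, at summed counts of 1634544 and 1747428.

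Among the lower genes with the smallest p was Cyp7b1 (chr3:18126114-18297503, GRCm39), the oxysterol 7α-hydroxylase, which clears side-chain oxysterols. Its normalized count was 28.6, 23.0, 31.4, 24.7 and 19.7 in control replicates 1 to 5 and 14.4, 9.79, 7.30, 11.2 and 6.72 in STING-MSC replicates 1 to 5, the order used throughout. Every STING-MSC joint was below every control joint, and control replicates 3 and 4 did not stand apart from the other controls. The log2 fold change was −1.31 ± 0.25 (SE, limma FDR = 0.208; exact two-sided permutation p = 0.00794, the smallest that 5 joints against 5 allow). Without control replicates 3 and 4 it was −1.22, still at an unadjusted p of 0.05 or less. Mdk (chr2:91760150-91762643), which encodes the heparin-binding growth factor midkine, averaged 341 ± 74.8 in control and 169 ± 54.3 in STING-MSC joints (mean ± SD, n = 5 each). Its highest STING-MSC joint, at 253.4, lay just under its lowest control joint, at 254.1. The Mdk log2 fold change of −1.04 ± 0.22 (limma FDR = 0.208) was near the 2-fold limit and fell under it when control replicate 3 or 4 or STING-MSC replicate 1 or 5 was left out.

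Egr1, Fos and Ccn1 are immediate-early genes, transcribed within minutes of a stimulus without new protein synthesis. Egr1 encodes a zinc-finger transcription factor that is also active in tendon cells. It was measured at 2692, 2695, 4315, 5559 and 2082 in control joints and at 1425, 840.3, 1614, 1013 and 604 in STING-MSC joints, with every STING-MSC joint below every control joint. The log2 fold change was −1.65 ± 0.38 (limma FDR = 0.256, exact permutation p = 0.00794), and −1.26 without control replicates 3 and 4, still at an unadjusted p of 0.05 or less. Fos (chr12:85520664-85524048), which pairs with Jun proteins to form the AP-1 factor, was measured at 797, 1348, 1512, 1132 and 665 in control and at 539, 346, 538, 237 and 248 in STING-MSC joints. Again the groups did not overlap, and the log2 fold change was −1.54 ± 0.38 (limma FDR = 0.274, exact permutation p = 0.00794), or −1.32 without control replicates 3 and 4. Ccn1 (chr3:145352731-145355737), a secreted matricellular protein that binds integrins, was measured at 2002, 1825, 2358, 5635 and 2105 in control joints, where replicate 4 was far above the rest. In STING-MSC joints Ccn1 was measured at 1277, 1099.6, 1071, 1143 and 459, all below the lowest control joint. Its log2 fold change was −1.40 ± 0.36 (limma FDR = 0.274, exact permutation p = 0.00794), or −1.05 without control replicates 3 and 4. Egr2, a relative of Egr1 that also drives myelination in Schwann cells, was measured at 162, 252.5, 385, 446 and 100 and at 156, 82.0, 157, 109.9 and 64.3, and here the groups overlapped, since control replicates 1 and 5 lay among or near the STING-MSC joints. The Egr2 log2 fold change of −1.12 ± 0.37 (limma FDR = 0.315) was −0.57 without control replicates 3 and 4, where its unadjusted p was above 0.05.

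These 4 were the called genes among 39 immediate-early and NF-κB feedback genes (10.3%, beside 1.78% of all genes), of which 0 were higher. The median of the list was −0.16, and −0.12 without control replicates 3 and 4, beside 0.0078 for all genes. Fos, Egr1 and Ccn1 were past the threshold without control replicates 3 and 4, where the list held 3 lower genes.

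The promoter windows of Fos, Ccn1 and Egr2 are shown because these genes were called lower and hold short elements upstream of their start. Each is the 150 bases before the start in RefSeq (GRCm38.p6, 5′ to 3′ on the gene's strand, another build than the gene positions above). They lie at chr12:85473740-85473889 on the + strand, chr3:145649986-145650135 on the − strand and chr10:67537719-67537868 on the + strand, the last being 1 of 5 starts of Egr2 in the table. Capitals mark the core of the cAMP response element (TGACGT on either strand, bound by CREB-family factors), TATAAA on the gene's strand, and the CArG box, the site of serum response factor.
Fos: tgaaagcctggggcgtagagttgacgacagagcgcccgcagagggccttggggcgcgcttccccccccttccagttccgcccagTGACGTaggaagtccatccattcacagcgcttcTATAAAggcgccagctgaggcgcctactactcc
Ccn1: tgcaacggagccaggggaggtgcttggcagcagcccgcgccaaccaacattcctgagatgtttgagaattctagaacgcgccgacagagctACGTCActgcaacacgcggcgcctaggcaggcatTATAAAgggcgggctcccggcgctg
Egr2: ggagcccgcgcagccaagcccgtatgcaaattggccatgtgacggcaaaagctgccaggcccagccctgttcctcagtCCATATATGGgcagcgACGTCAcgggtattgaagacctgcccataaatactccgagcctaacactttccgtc
In Fos the cAMP response element core began 66 bases before the start and TATAAA 33 bases before it. In Ccn1 the same elements began 59 and 25 bases before the start, with the core on the other strand. Egr2 held the CArG box 72 bases and the core 56 bases before its start. The motifs were chosen after the windows were read. For Egr2, a start whose window held the most kinds of these motifs was taken, so its elements follow in part from that choice. The window of Egr1 is not shown. Over 250 bases before the start, TGACGT was present on either strand in 10.6% of the 11627 genes with a promoter in the table, in 34.4% of the 32 immediate-early genes with one, in 6.94% of 173 lower genes and in 9.68% of 31 higher genes. TGANTCA, the AP-1 site on which Fos and Jun act, was present in 6.02% of all genes, in 11.6% of the lower genes (20 of 173) and in 3.23% of the higher genes (1 of 31). TATAAA was present in 8.85% of all genes and in 19 of the 173 lower genes, and the CArG box in 1.44% of all genes and in 2 of the 173. These shares describe letters in the windows and were not tested.

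Syt17 (chr7:117979940-118047446), a synaptotagmin family member, was measured at 30.7, 14.5, 37.7, 33.8 and 23.1 in control joints. In STING-MSC joints it was measured at 3.93, 3.67, 4.17, 7.496 and 0, so that even the highest of these was well under the lowest control joint. The log2 fold change was −2.79 ± 0.66 (limma FDR = 0.262, exact permutation p = 0.00794), and −2.51 without control replicates 3 and 4. Wnt7b (chr15:85419638-85466675), a Wnt ligand known for bone formation, was measured at 54.0, 25.4, 31.4, 52.1 and 15.6 in control and at 1.31, 0, 1.04, 9.99 and 14.4 in STING-MSC joints. It was listed at 0 in STING-MSC replicate 2, and the 2 groups did not overlap although STING-MSC replicate 5 came close to control replicate 5. The Wnt7b log2 fold change was −3.13 ± 0.81 (limma FDR = 0.277, exact permutation p = 0.00794), or −2.92 without control replicates 3 and 4. The other leading lower genes were Aplp1, a relative of the amyloid precursor protein (log2 fold change −1.17), the orphan receptor Gpr176 (−1.62), the zinc-finger gene Zfp827 (−1.01), Lrrc18 (−1.45) and Gm2115 (−2.88). Lrrc18 overlaps the gene Wdfy4 on the other strand, and since the counting strand is not stated the source of its reads is uncertain. In all 12 leading lower genes every STING-MSC joint was below every control joint. The 12 were picked by their p in these same joints, so neither this separation nor the next counts are independent of that choice. Without control replicates 3 and 4, 8 of the 12 stayed past the threshold and all 12 kept an unadjusted p of 0.05 or less, while Mdk, Aplp1, Zfp827 and Gpr176 dropped under 2-fold.

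**Figure D3:**
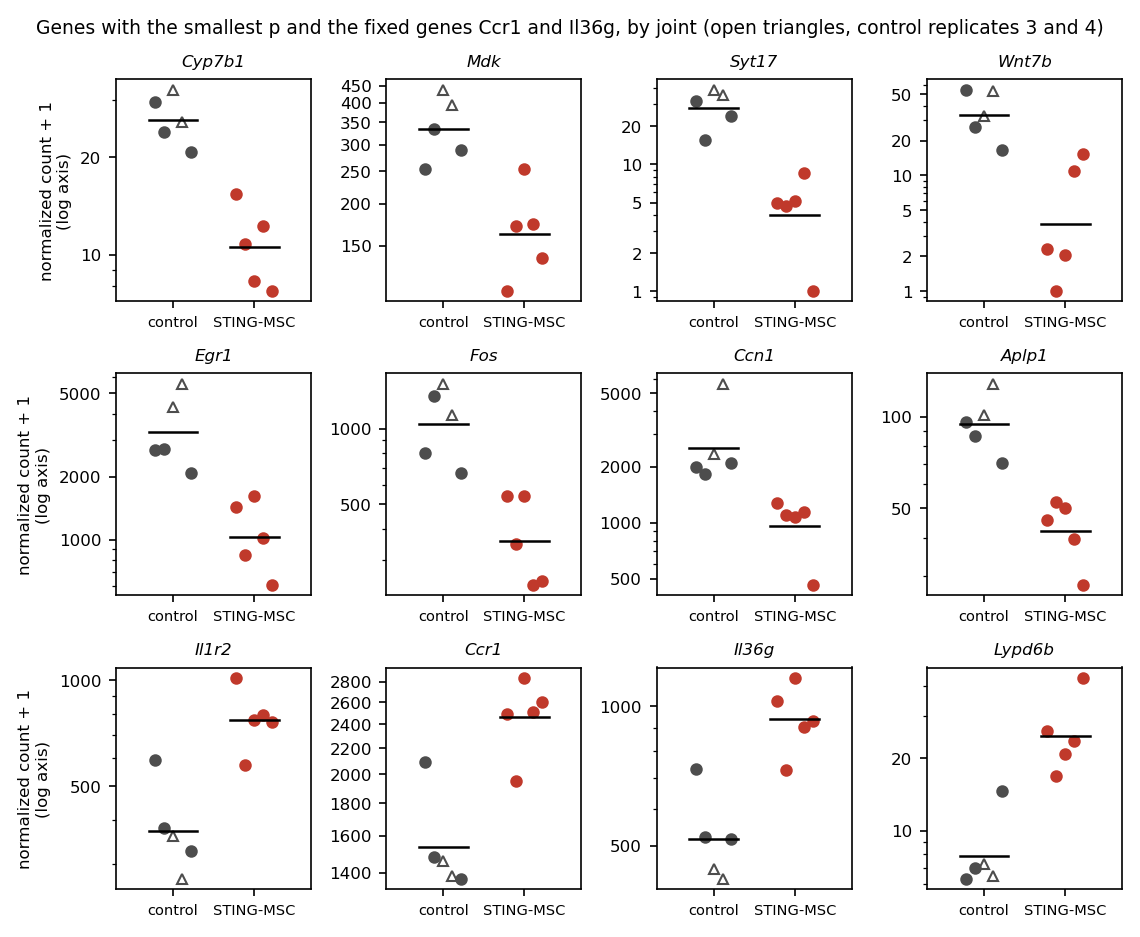
Normalized count + 1 (log axis) of 12 genes in each joint, 1 point per joint, with a line at the mean on the log scale and open triangles for control replicates 3 and 4. For Cyp7b1, Egr1, Fos and Wnt7b all 5 STING-MSC joints lie below all 5 control joints, while for Il1r2, Ccr1 and Il36g the STING-MSC joints are shifted upward and 1 lies below control replicate 1.

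Genes of the fibrous matrix made up the largest described groups of lower genes. Of 41 collagen genes, 16 were lower and 0 higher, a share of 39.0% beside 1.78% of all genes, with a median log2 fold change of −0.95. Of 20 tendon and ligament genes 8 were lower and 0 higher (median −1.09), and of 39 matrix proteases and their inhibitors 11 were lower and 1 higher (median −0.68). Without control replicates 3 and 4, the medians of these 3 lists were −0.49, −0.68 and −0.36, and the numbers of lower genes were 0, 1 and 0. The tendon gene was Egr1, while the medians of all 3 lists kept their sign.

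The summed count of the collagens was 414999, 750582, 1634544, 1747428 and 486566 in control joints and 473576, 413503, 569579.6, 374141 and 307873 in STING-MSC joints. Control replicates 1 and 5 lay inside the STING-MSC range, control replicate 2 above it and control replicates 3 and 4 far above it. By type, the fibrillar collagens I, III and V of tendon, skin and scar had 4 of 6 genes lower (median −1.51, and −0.73 without control replicates 3 and 4). Collagen VI, which forms beaded filaments around cells, had 4 of 5 lower (median −1.38, and −0.76 without them). Basement membrane collagen IV had 1 of 6 lower (median −0.51, and −0.16 without them). The cartilage collagens II, IX and XI had 0 of 6 lower, with a median of 0.03 and of 0.53 without control replicates 3 and 4. Their summed count was 16942, 40943, 104450.0, 109071 and 29104 in control joints and 25819, 21607, 74932, 19846 and 57014 in STING-MSC joints, again highest in control replicates 3 and 4, with STING-MSC replicates 3 and 5 above the other 3 control joints. Col3a1, the main collagen of repair tissue (chosen after its values were seen), had a log2 fold change of −2.05 ± 0.77 (limma FDR = 0.351), and −1.24 without control replicates 3 and 4, where its unadjusted p was above 0.05.

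Col12a1, a collagen on the surface of fibrils in tendon and ligament, was measured at 3166, 8062, 13638, 15966 and 6055 in control and 3118, 2699.5, 3652, 2954 and 2151 in STING-MSC joints. Control replicate 1 lay among the STING-MSC joints and the other 4 control joints above them. The log2 fold change was −1.49 ± 0.49 (limma FDR = 0.311, exact permutation p = 0.0159), and −0.90 without control replicates 3 and 4, where its unadjusted p was above 0.05. Col15a1 (log2 fold change −1.61) and Col16a1 (−1.24) had the next smallest p of the collagens and were −0.94 and −0.73 without those joints. Thbs2, a thrombospondin that regulates fibril assembly, was lower as well, at 5497 ± 3212 in control and 1984 ± 582 in STING-MSC joints (mean ± SD, n = 5 each). Tenomodulin (Tnmd, −1.46), a marker of mature tendon cells, fibromodulin (Fmod, −1.40) and Thbs4 (−1.86), chosen after their values were seen, were among the other lower tendon genes.

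Among the proteases, Mmp14, a membrane-bound collagenase that activates pro-Mmp2, was measured at 4968, 9471, 21733, 22999 and 5398 in control and at 3932, 3471, 4382, 4528 and 3329 in STING-MSC joints. Its substrate Mmp2, gelatinase A, was measured at 4872, 11327, 24887, 27589.9 and 5940.5 and at 3156, 3295, 3232, 4317 and 1702. In both genes every STING-MSC joint lay below every control joint, although control replicates 1 and 5 were much closer to them than control replicates 3 and 4. The log2 fold changes were −1.43 ± 0.48 for Mmp14 and −1.97 ± 0.69 for Mmp2 (limma FDR = 0.315 and 0.33), and −0.70 and −1.20 without control replicates 3 and 4. Adamts16, a metalloprotease with thrombospondin repeats, had a larger difference of −2.82 ± 0.97 (limma FDR = 0.328), from 325, 1167, 2620.2, 2808 and 346 in control to 222, 191, 111, 189.9 and 59.5 in STING-MSC joints. Adamts4, an aggrecanase, and Mmp3, stromelysin 1 (both chosen after their values were seen), were lower too, with log2 fold changes of −1.79 and −1.77. Timp1, which inhibits these metalloproteases, was lower as well, at 1099, 3008, 8811, 11159 and 1253 in control and at 920.5, 971, 856, 811 and 479 in STING-MSC joints (log2 fold change −2.08 ± 0.77, limma FDR = 0.346). The log2 fold change without control replicates 3 and 4 was −1.03 for Timp1 and −1.86 for Adamts16, both at an unadjusted p above 0.05. Timp1 overlaps Syn1 on the other strand, so its reads cannot be assigned by strand here. Mmp13, the main collagenase of cartilage, averaged 12353 ± 5264 in control and 6287 ± 1039 in STING-MSC joints (mean ± SD, n = 5 each), and its log2 fold change of −0.88 ± 0.35 missed the 2-fold limit (limma FDR = 0.368). Adamts5, the other major aggrecanase, had a log2 fold change of −0.06 ± 0.23 (limma FDR = 0.945).

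**Figure D4:**
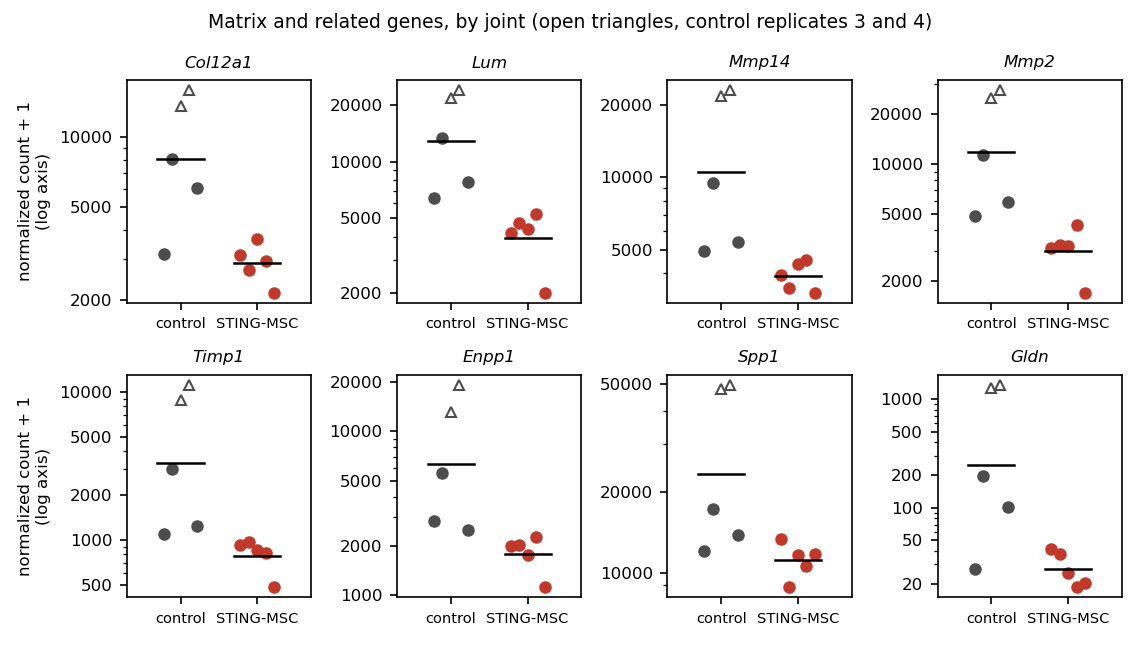
Normalized count + 1 (log axis) of 8 matrix and related genes in each joint, 1 point per joint, with a line at the mean on the log scale and open triangles for control replicates 3 and 4. In each gene control replicates 3 and 4 are the 2 highest control joints, and for Timp1, Enpp1 and Gldn they lie far above the other 3.

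The fibroblast lists followed the same joints. Of 28 genes of sublining fibroblasts and mesenchymal progenitors, 5 were lower (17.9%), with a median of −0.65, or −0.25 without control replicates 3 and 4. Of 20 synovial lining genes 5 were lower (25.0%, median −0.33, then −0.20). The lower share of all genes was 1.78%. Lum, the proteoglycan lumican that spaces collagen fibrils, was measured at 6388, 13298, 21797, 23902 and 7811 in control and at 4166, 4698, 4406, 5302 and 2020.5 in STING-MSC joints, without overlap. The Lum log2 fold change was −1.71 ± 0.58 (limma FDR = 0.326, exact permutation p = 0.00794), and −1.15 without control replicates 3 and 4, where its unadjusted p was above 0.05. Fibulin 2 (Fbln2, −1.66), the Wnt antagonist Sfrp2 (−1.42) and the secreted protease Htra1 (−1.93) were other named members, besides Col15a1 and Timp1 of the lining list. Neither list held a lower gene without control replicates 3 and 4. Htra1 overlaps Fgfr2 on the other strand. Prg4, the lubricin of the lining, had a log2 fold change of −1.16 ± 0.67 but did not pass (limma FDR = 0.498), and it overlaps Tpr on the other strand. The summed count of the lining list was 211659 to 667671 in control and 80030.3 to 263369 in STING-MSC joints.

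Ligands, receptors and secreted inhibitors of the Wnt pathway, which directs bone formation and joint homeostasis, were lower in 8 of 46 genes and higher in 1. The lower share was 17.4% beside 1.78% of all genes, and the median was −0.38, or −0.15 without control replicates 3 and 4. Besides Wnt7b, the lower ligand was Wnt16, which protects cortical bone, at 62.5, 185, 269, 349.8 and 161 in control and 42.0, 34.2, 89.7, 76.2 and 10.6 in STING-MSC joints (log2 fold change −2.10 ± 0.77, limma FDR = 0.336). Control replicate 1 lay inside the STING-MSC range, and the fold change was −1.58 without control replicates 3 and 4, where its unadjusted p was above 0.05. The receptor Fzd10 was measured at 45.5, 60.4, 37.7, 50.2 and 37.4 and 21.0, 17.1, 7.30, 38.7 and 4.797, where only STING-MSC replicate 4 reached the control range. Fzd10 had a log2 fold change of −1.63 ± 0.47 (limma FDR = 0.29, exact permutation p = 0.0238) and of −1.67 without control replicates 3 and 4. Fzd6 (−1.44) and, chosen after their values were seen, Fzd2 (−1.06), Dkk3 (−1.29) and Sfrp1 (−1.04) were also lower, as was Sfrp2, given above. The list held 3 lower genes, Wnt7b and Fzd10 among them, and 1 higher gene without control replicates 3 and 4. The ligand Wnt2, also chosen after its values were seen, was the 1 higher member, at 2.51 to 33.8 in control and 17.1 to 39.6 in STING-MSC joints (log2 fold change 1.45 ± 0.61, limma FDR = 0.374).

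In the TGF-β and BMP pathway, which drives fibrosis and cartilage and bone growth, 4 of 47 genes were lower (8.51%, beside 1.78% of all genes) and 0 higher. The median was −0.22, or −0.07 without control replicates 3 and 4. The lower genes were the activin subunit Inhbb (−1.56), the latent TGF-β binding protein Ltbp2 (−1.26), the procollagen C-proteinase Bmp1 (−1.01) and the joint morphogen Gdf5 (−1.84, chosen after its values were seen). Inhbb was measured at 376, 512, 1551, 1775 and 374 in control and 239, 349.8, 267, 324 and 119.9 in STING-MSC joints, with all STING-MSC joints below the controls (limma FDR = 0.29, exact permutation p = 0.00794). None of the 4 stayed past the threshold without control replicates 3 and 4, where Inhbb had a log2 fold change of −0.77.

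Of 31 osteoblast and osteocyte genes, 3 were lower (9.68%, beside 1.78% of all genes), Wnt16, Enpp1 and Spp1, with a median of −0.26. Without control replicates 3 and 4 the list held 0 lower genes (median 0.0091). Enpp1 makes the mineralization inhibitor pyrophosphate and is also the enzyme that hydrolyses extracellular cGAMP. It was measured at 2827, 5569, 13160.0, 19221 and 2493 in control joints and at 2002, 2021, 1753, 2270.1 and 1119 in STING-MSC joints. The groups did not overlap, control replicates 3 and 4 were more than 2-fold above the other controls, and the log2 fold change of −1.82 ± 0.70 (limma FDR = 0.358, exact permutation p = 0.00794) was −0.93 without them, where its unadjusted p was above 0.05. Spp1, osteopontin, was measured at 12034, 17187, 48010.3, 49808 and 13794 and 13319.5, 8826, 11638, 10622 and 11717, with control replicate 1 inside the STING-MSC range (log2 fold change −1.06 ± 0.43, and −0.35 without control replicates 3 and 4).

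Of 25 Schwann cell and myelin genes, 3 were lower (12.0%, beside 1.78% of all genes), Egr2, Gldn and Cdh19, with a median of −0.32. Without control replicates 3 and 4 the list held 0 lower genes (median −0.24). Gldn, gliomedin of the node of Ranvier, was measured at 26.5, 197, 1258, 1354 and 101 in control joints and at 40.6, 36.7, 23.98, 17.5 and 19.2 in STING-MSC joints. Control replicate 1 lay inside the STING-MSC range and control replicates 3 and 4 were far above every other joint. Its log2 fold change was −3.19 ± 1.11 (limma FDR = 0.329, exact permutation p = 0.0238), and −1.60 without control replicates 3 and 4, where its unadjusted p was above 0.05. Of 43 ion channel genes 5 were lower (11.6%, beside 1.78% of all genes), and 0 without control replicates 3 and 4. The list median was −0.18 both with and without those joints. The potassium channel Kcna1 was measured at 14.8, 10.9, 17.6, 21.0 and 10.2 and 3.93, 7.34, 7.30, 7.496 and 5.76 without overlap (log2 fold change −1.09 ± 0.35, limma FDR = 0.307), and the leak channel Kcnk3 (−1.06) and the sodium channel Scn3a (−1.78) were lower as well. Their log2 fold changes without control replicates 3 and 4 were −0.83 for Kcna1, −0.92 for Kcnk3 and −1.36 for Scn3a, none of them called. Piezo2, a mechanosensor of joint afferents, and the neurotrophin Bdnf (both chosen after their values were seen) were lower, with log2 fold changes of −1.60 and −1.83. Of 32 endothelial genes 2 were lower (6.25%, beside 1.78% of all genes). On the lower side 13 had an unadjusted p of 0.05 or less (5.69% of all genes), and 0 on the higher side. With control replicates 3 and 4 left out, 0 endothelial genes were lower at the threshold and 3 at that p (0.656% of all genes), and the median of the list went from −0.46 to −0.29.

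The 41 higher genes were weakly expressed as a rule. Of these, 34 had a mean normalized count under 50 over the 10 joints, and for 24 the highest control joint was replicate 1. Lypd6b, a membrane-anchored modulator of nicotinic receptors, was measured at 5.29, 6.04, 6.28, 5.48 and 13.6 in control and at 24.9, 15.9, 19.8, 22.5 and 42.2 in STING-MSC joints, without overlap. Its log2 fold change was 1.65 ± 0.33 (limma FDR = 0.208, exact permutation p = 0.00794), and 1.52 without control replicates 3 and 4. Tmc3, of the transmembrane channel-like family, averaged 5.42 ± 2.00 in control and 18.9 ± 8.27 in STING-MSC joints (mean ± SD, n = 5 each), also without overlap. Adamts19 (2.28) and the collectin Colec10 (2.58) had larger fold changes with 1 STING-MSC joint inside the control range. Retnla, a secreted product of alternatively activated macrophages, was measured at 661, 103, 134, 348 and 458 in control and 952, 769, 1335, 882 and 742 in STING-MSC joints, where the groups did not overlap (log2 fold change 1.75 ± 0.54, limma FDR = 0.29, exact permutation p = 0.00794). Slc7a11, the cystine transporter that feeds glutathione synthesis, was measured at 141, 145, 111, 65.8 and 76.2 and 273, 164, 279, 197 and 232, again without overlap (log2 fold change 1.12 ± 0.28, limma FDR = 0.274). The median log2 fold change of the 41 genes was 1.28, and 18 of them stayed past the threshold without control replicates 3 and 4.

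Of the immune genes fixed by name or leading by p, Il1r2 was higher and Il36g and Ccr1 had a small p under the 2-fold limit. Il1r2, the decoy receptor that captures IL-1, was measured at 592, 378, 359, 270.3 and 326 in control and at 1018, 572, 771, 798 and 759 in STING-MSC joints. STING-MSC replicate 2 lay just below control replicate 1, and the other joints did not overlap (log2 fold change 1.05 ± 0.22, limma FDR = 0.208, exact permutation p = 0.0159). Il36g, the IL-1 family cytokine IL-36γ, had the smallest p of the genes fixed by name and a change under 2-fold, with 731, 521, 444, 422 and 516 in control and 1027, 729, 1153, 902 and 929 in STING-MSC joints (log2 fold change 0.86 ± 0.15, limma FDR = 0.208, exact permutation p = 0.0159). Ccr1, a chemokine receptor of neutrophils and monocytes, was measured at 2094, 1479, 1456, 1382 and 1365 and at 2490.0, 1951, 2843, 2508 and 2601 (log2 fold change 0.68 ± 0.13, limma FDR = 0.208, exact permutation p = 0.0159). In both genes control replicate 1 was the highest control joint and overlapped only STING-MSC replicate 2.

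Of 42 chemokines and their receptors 4 were higher (9.52%, beside 0.277% of all genes) and 0 were lower. On the higher side, 9 had an unadjusted p of 0.05 or less (6.54% of all genes). Cxcr1, a receptor for neutrophil-attracting chemokines, was measured at 24.3, 9.66, 7.54, 16.4 and 2.04 and 42.0, 15.9, 23.98, 22.5 and 72.0, where 3 STING-MSC joints lay inside the control range (log2 fold change 1.60 ± 0.48, limma FDR = 0.29). The B cell chemokine Cxcl13 (1.27) and the monocyte chemokine Ccl8 (1.02) followed, and Ccr10 (1.01, chosen after its values were seen) was the fourth. The median of the list was 0.18, and 0.15 without control replicates 3 and 4, where 3 of the list were past the threshold, Cxcl13 having an unadjusted p above 0.05. Of 31 neutrophil granule genes, made mainly in marrow precursors, 0 passed the threshold. Yet 23 of them had an unadjusted p of 0.05 or less on the higher side (6.54% of all genes). The neutrophil list had a median log2 fold change of 0.54, and of 0.35 without control replicates 3 and 4, where 4 genes had such a p (2.5% of all genes). Its summed count was 1012779, 831479.9, 741644, 619189.8 and 651538 in control joints and 1046294, 812979, 1235096, 1083097 and 1257921 in STING-MSC joints. Some other lists of blood and marrow cells and of dividing cells lay on the higher side without a called gene. Their medians were 0.59 for mast cells, basophils and eosinophils (22 of 22 genes positive), 0.34 for megakaryocytes (17 of 19), 0.25 for red cells (30 of 31) and 0.21 for the cell cycle (40 of 40). These 4 medians without control replicates 3 and 4 were 0.33, 0.0041, 0.0030 and 0.0090. The B lineage list went the other way, with 19 of 29 genes negative and a median of −0.053, then −0.23 without those joints. The medians were 0.15, then −0.035, for T and NK cells, 0.125, then 0.16, for macrophages and 0.22, then 0.16, for dendritic cells. Control replicates 3 and 4, highest for matrix genes, were not highest for the neutrophil list, and the amount of marrow taken with each joint was not tested. Of 13 acute phase genes 2 were higher (15.4%, beside 0.277% of all genes), Orm2 (1.25) and Serpinf2 (1.10). Of 28 complement genes C7 (1.57) was higher (3.57%). Masp1 (−1.74) and C1qtnf3 (−2.69) were lower (7.14%, beside 1.78% of all genes). All 5 were chosen after their values were seen. Orm2 has near-identical copies, so its count is uncertain.

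The pathway that the injected cells had been activated through showed no called change in the joints apart from Enpp1. Sting1 itself was measured at 903, 795, 1082, 847 and 787 in control and at 725, 749.8, 1192, 791 and 951 in STING-MSC joints, a log2 fold change of −0.02 ± 0.13 (limma FDR = 0.975). Cgas, the sensor upstream of it, averaged 266 ± 34.5 and 366 ± 53.3 (mean ± SD, n = 5 each), with a log2 fold change of 0.45 ± 0.20 that was under 2-fold (limma FDR = 0.383, exact permutation p = 0.0159). Of 29 genes of cGAS-STING and nucleic acid sensing 1 was lower and 0 higher. Of 41 type I interferon-stimulated genes 0 were called in either direction, beside 1.78% lower and 0.277% higher of all genes. At these shares a list of this size would hold few called genes. Of the 41, 36 were positive, with a median of 0.15, or 0.057 without control replicates 3 and 4. Of 32 interferon gamma-induced genes 0 were called and 25 were positive, with a median of 0.20, then 0.040. Isg15, a ubiquitin-like protein induced by interferon, was measured at 1375, 1557, 1019, 1413 and 2227 and 2065, 1268, 1766, 1312 and 1681 (log2 fold change 0.11 ± 0.29, limma FDR = 0.908). Cxcl10, an interferon-induced chemokine, was measured at 79.4, 80.9, 116, 57.5 and 52.4 in control and 44.6, 67.3, 619, 66.2 and 56.6 in STING-MSC joints, where replicate 3 stood far above the rest (log2 fold change 0.33 ± 0.56, limma FDR = 0.855). Cxcl10 overlaps Art3 on the other strand. Ccl5 had a log2 fold change of 0.29 ± 0.27 (limma FDR = 0.684). Ifnb1, the gene of interferon-β, was not analysed here.

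The inflammatory cytokines fixed by name did not pass either, with log2 fold changes of 0.11 ± 0.20 for Il1b, 0.02 ± 0.37 for Il6 and 0.60 ± 0.35 for Tnf (limma FDR = 0.855, 0.989 and 0.502). Il6 was weakly expressed, at 7.25 to 27.5 in control and 7.87 to 24.9 in STING-MSC joints. Among 32 cytokines and receptors Il11 (−1.98, chosen after its values were seen), a cytokine of fibroblasts, was lower and Il1r2 higher. Each is 3.12% of the list, beside 1.78% lower and 0.277% higher of all genes. Of 31 cartilage genes 0 were lower and 0 higher, and the median was −0.11, or 0.31 without control replicates 3 and 4. Acan, the core protein of aggrecan, was measured at 2506, 3794, 10860.3, 12963 and 2728 in control and 2999, 2298, 4910.5, 2363 and 3305 in STING-MSC joints (log2 fold change −0.76 ± 0.62, limma FDR = 0.64). Col2a1 had a log2 fold change of −0.73 ± 0.90 (limma FDR = 0.782). A 2-fold decrease lay within 2 SE of both values. Lists with 1 called gene, each chosen after its values were seen unless named above, were those of osteoclasts (Fos), sterol metabolism (Cyp7b1), B lineage cells (Sdc1, −1.14), pericytes (Ednra, −1.04), neurons (Tubb3, −1.39), pain mediators (Bdnf), the circadian clock (Npas2, −1.53) and hair follicle (Awat1, 1.31). In all, 19 of the 44 lists held no called gene, among them those for muscle, red cells, cell cycle, ribosomal proteins and mitochondrial respiration.

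**Figure D5:**
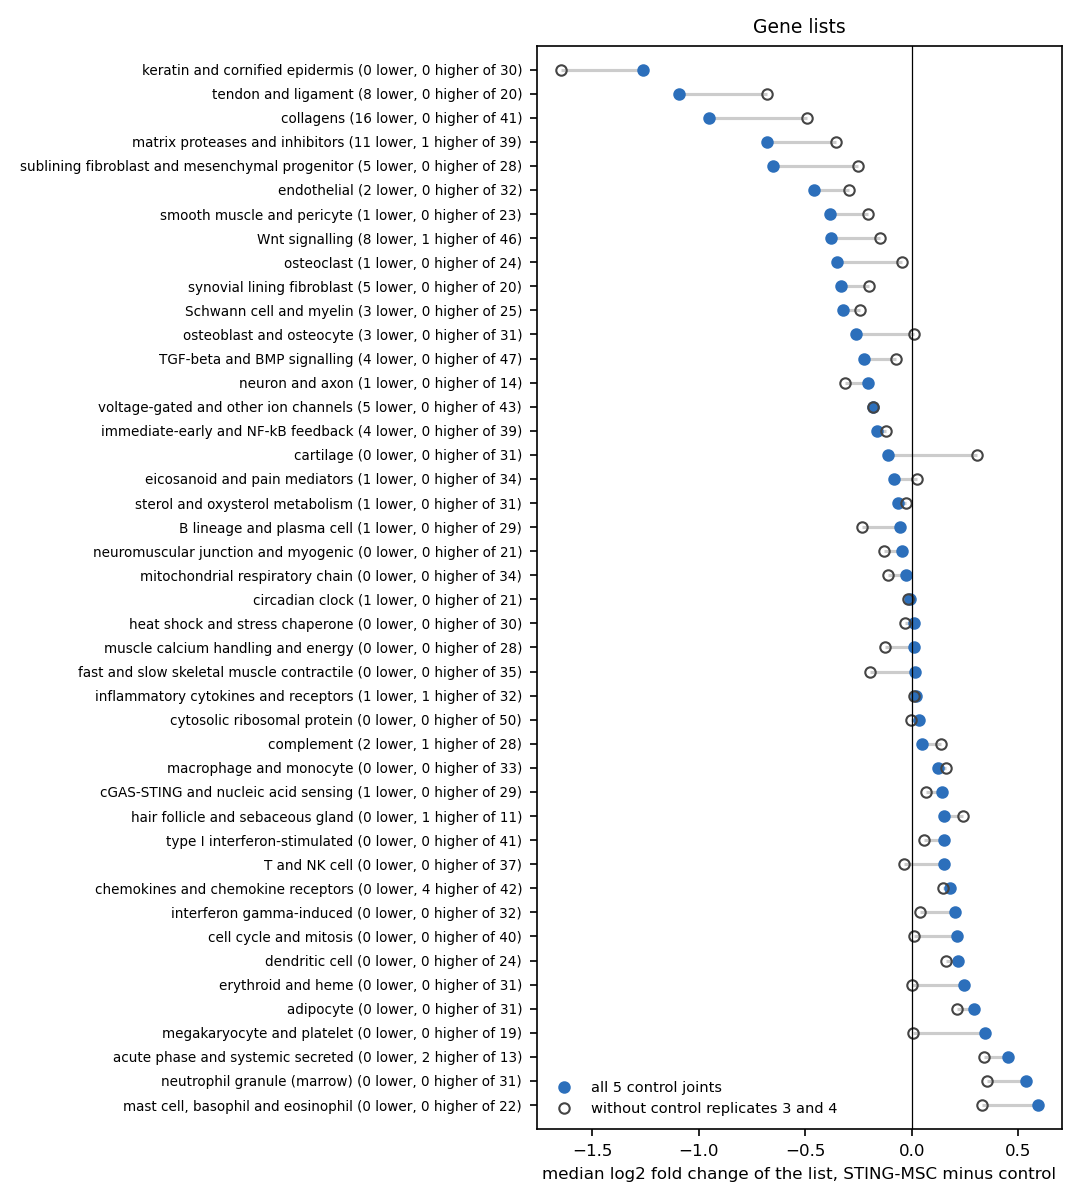
The median log2 fold change of each of 44 gene lists (horizontal axis) with all 5 control joints (filled points) and without control replicates 3 and 4 (open points), with the called genes of each list in its label. The tendon list moves from −1.09 to −0.68 and the collagens from −0.95 to −0.49, while the neutrophil list stays on the higher side at 0.54 and 0.35.

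The other injected groups, which received non-activated MSC or MSC treated with a TLR3 agonist, give the levels beside which the STING-MSC values can be read. They share the STING-MSC joints with the comparison above, so the values are given side by side only. Fos averaged 1091 in control, 1123 in MSC, 642 in TLR3-MSC and 382 in STING-MSC joints, and STING-MSC minus MSC was −1.53 (limma FDR = 0.568). Cyp7b1 averaged 25.5, 17.0, 18.2 and 9.89 in the same order, with log2 differences of −0.74 from MSC and −0.85 from TLR3-MSC (limma FDR = 0.824 and 0.89). Gm2115 averaged 27.7, 26.6, 26.8 and 3.21 and differed from MSC by −2.62 (limma FDR = 0.737). Other leading lower genes stood less apart from a cell group. Wnt7b averaged 35.7, 7.82, 21.3 and 5.35, and Lrrc18 averaged 23.5, 17.25, 8.29 and 8.58. Aplp1 differed from MSC by −0.30. Of the 12 leading lower genes, 9 had an unadjusted limma p of 0.05 or less against MSC and 7 against TLR3-MSC. The 12 were picked for low values in these same STING-MSC joints, so these counts follow in part from that choice. They do not show that a gene is particular to STING-MSC, and the share of all genes at that p is not given here. Timp1 averaged 5066, 2371, 2979 and 807, but single joints raised the means of the cell groups. It was at 7729 in MSC replicate 2 and at 321 to 1709 in the other MSC joints. In TLR3-MSC replicates 2 and 5 it was at 3633 and 7765, and in the other TLR3-MSC joints at 846 to 1459. The summed collagen count was likewise highest of its group in MSC replicate 2 (1477383) and TLR3-MSC replicate 5 (1196027). The list medians also differed from control in the other cell groups. For MSC, TLR3-MSC and STING-MSC minus control they were −0.64, −0.38 and −0.95 for collagens and −0.79, −0.36 and −1.09 for tendon. For the neutrophil list they were 0.47, 0.29 and 0.54. These shifts were thus not confined to STING-MSC joints. For Il36g the means were 527, 920.2, 934 and 948, for Ccr1 1555, 2489.9, 2346 and 2478, and for Slc7a11 107.7, 310.1, 211 and 229. For these 3 genes the control mean was the lowest of the 4. Among the 12 leading lower genes the smallest limma FDR was 0.568 against MSC and 0.89 against TLR3-MSC, so no difference from the other cell groups passed correction.

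Some calls depended on 1 joint. Without control replicate 4, the calls of Enpp1 (log2 fold change −1.42), Timp1 (−1.65), Ltbp2 (−0.99) and Slc7a11 (0.97) were lost, and without control replicate 3 that of Cxcl13 (1.00). Bmp1 was at −0.75 without control replicate 3, −0.76 without control replicate 4, −1.01 without STING-MSC replicate 4 and −0.90 without STING-MSC replicate 5, each time uncalled. Spp1 was at −0.80, −0.79 and −0.98 without control replicate 3, control replicate 4 and STING-MSC replicate 2. Egr2 was at −0.94, −0.89 and −0.93 without control replicate 3, control replicate 4 and STING-MSC replicate 5, and Fbln2 at −1.34, −1.28 and −1.43 without the same 3 joints. Mdk was at −0.94 and −0.98 without control replicates 3 or 4 and at −0.90 and −0.98 without STING-MSC replicates 1 or 5, and Zfp827 at −0.93, −0.85 and −0.85 without control replicate 3, control replicate 4 and STING-MSC replicate 1. Sfrp2 (−1.01 and −1.17) and Scn3a (−1.51 and −1.07) lost the call without control replicate 4 or STING-MSC replicate 5. Il1r2 (0.94 and 0.95), Kcna1 (−0.96 and −0.95) and Kcnk3 (−0.997 and −0.87) lost it without control replicate 4 or STING-MSC replicate 1, and Kcnk3 also without STING-MSC replicate 4 (−0.92). Ccl8 was at 0.78, 0.99 and 0.74 without control replicate 2, control replicate 5 and STING-MSC replicate 3. Cdh19 kept its call only when control replicates 1, 2 or 5 or STING-MSC replicates 1 or 2 were left out and otherwise lay between −0.92 and −1.09. Every other called gene of the 66 kept its call with any 1 joint left out.

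Families with near-identical members are uncertain, since reads can be split between copies. Olfr809 and Olfr810, neighbouring olfactory receptor genes, had the widest differences among the lower genes without overlap. Olfr809 was measured at 2.12, 42.3, 94.3, 104 and 4.76 in control joints and listed at 0 in all 5 STING-MSC joints, so no fold change is given. Olfr810 was measured at 4.23, 97.9, 425, 329.7 and 13.6 and at 2.62, 0, 1.04, 3.75 and 0, with control replicates 1 and 5 near the STING-MSC joints. Crabp2, a retinoic acid carrier, was the third of these, at 42.3, 124, 274, 511 and 42.2 in control and 10.5, 15.9, 26.1, 18.7 and 1.92 in STING-MSC joints (log2 fold change −3.35 ± 1.03, limma FDR = 0.29). Of 14 olfactory receptor genes, 3 were lower and 3 higher, with a median of 0.09, so the family as a whole was not lower. Of 48 protocadherins, adhesion genes that share exons in clusters (chosen after their values were seen), 10 were lower with all joints, beside 1.78% of all genes. Without control replicates 3 and 4, 0 protocadherins were lower, beside 0.23% of all genes. Of 5 lysyl oxidases, the enzymes that cross-link collagen, 3 were lower with all joints and 0 without these 2 control joints, beside the same shares of all genes.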

How the data were processed

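Right knee joints of 20 mice, 5 in each of 4 groups, were profiled by RNA sequencing of polyadenylated RNA. The samples had RNA integrity numbers above 7.5, and reads were 150 bases long. The authors aligned the reads to GRCm39 with STAR 2.7.3a, counted them on the Ensembl 108 annotation with HTSeq in Partek Flow 10.0 and named DESeq2 for differential expression. Whether the counting used strand is not given in the sources used here. The authors deposited a normalized signal, the counts of each sample divided by a size factor, for 14793 genes. Dividing by the step between low values returned whole reads for 98.9 to 99.9% of values per joint (tolerance 0.05 read), from which depth and sampling noise were computed. At these depths counting error matters for weakly expressed genes and leaves out the spread between mice. No pair of control joints and no pair of STING-MSC joints had a chi-square under 24.2 per gene, far above sampling noise, and none was treated as a duplicate. Pairs of MSC and of TLR3-MSC joints were not checked in this way. The labels give no batch. All 20 sample columns were matched to labels by name, and 0 columns were left out.

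Because the deposited values are normalized, limma 3.58.1 in R 4.3.3 was used with a trend on log2(normalized count + 1), a pseudocount of 1, over all 4 groups, which share 1 estimate of the spread. FDR was computed by the Benjamini-Hochberg method. The lowest mean count of a gene over the 20 joints was 9.40, and no filter was applied. Exact permutation tests over 5 joints against 5 were two-sided, with a smallest p of 0.00794. The methods were also run on simulated counts, whose means and spread were taken from these data. Gene lists, 44 with 1497 names of which 1342 were in the table, are described by counts and medians. Named genes were the 12 lower and 6 higher with the smallest p among called genes, the 3 with the smallest p of each list with at least 3 called in 1 direction, 17 genes fixed by name, and the 3 with the largest fold change in each direction among called genes without overlap between groups, 66 in the table in all. The samples, the lists and the named-gene rule were chosen with earlier results of these data known. Alternatives were other pseudocounts, a minimum mean, only the 2 groups, quantile normalization, edgeR 4.0.16 and DESeq2 1.42.0 on the recovered reads, a replicate block and each joint left out. Leaving out control replicates 3 and 4 together was added after the values were seen. Promoter windows came from RefSeq (GRCm38.p6), matched by symbol for 11627 of the genes.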

Additional observations from a re-analysis of the deposited data

Results flagged for a closer look

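A value is listed here when 1 joint of a group of 5 stood apart, its gap to the nearest joint divided by the range of the group being above Dixon's critical value of 0.71. This was looked at in 132 groups, 66 named genes in control and in STING-MSC joints, and 12 values were listed. Chance gives about 1 in 20 such groups. STING-MSC replicate 5 was the lowest of its group for Syt17 (0 normalized counts), Ccn1 (459), Col15a1 (426), Timp1 (479), Lum (2020.5) and Scn3a (0.959). STING-MSC replicate 2 was the highest for Cdh19 (34.2) and STING-MSC replicate 3 for Cxcl10 (619). Among control joints, replicate 4 was the highest for Ccn1 (5635) and the lowest for Ccl5 (129), replicate 5 the highest for Lypd6b (13.6) and replicate 1 the highest for Ccr1 (2094). What set these joints apart was not tested.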

How the results depend on the processing

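Most values of the 66 named genes kept their direction and side of the threshold, 1126 of 1245, while 91 lost the call, 4 gained it and 24 changed sign. At an FDR of at most 0.05, DESeq2 gave 85 genes and the fits with 1 joint left out from 0 to 4, against 0. The number of lower genes ranged from 97 to 406 with 1 joint left out and was 34 without control replicates 3 and 4, against 264. The number of higher genes was 21 with a pseudocount of 5, 20 with a minimum mean of 20, 82 after quantile normalization, 27 without control replicates 3 and 4 and from 32 to 83 with 1 joint left out, against 41. Without control replicates 3 and 4 the log2 fold change changed sign for Acan (0.044), Col2a1 (0.21), Il1b (−0.018), Adamts5 (0.094), Il6 (−0.22), Isg15 (−0.081) and Sting1 (0.067), none of which was called. With 1 joint left out the value ranged across 0 for Adamts5 (−0.18 to 0.071), Cxcl10 (−0.35 to 0.59), Il6 (−0.22 to 0.31), Isg15 (−0.018 to 0.26) and Sting1 (−0.13 to 0.058). Il6 was −0.029 in edgeR and −0.017 in DESeq2, and Sting1 was 0.0004 after quantile normalization and 0.0007 in DESeq2. The cause was not tested.

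Same-numbered joints are different mice, so the numbers do not pair them. Their deviations correlated at −0.08, 0.05, 0.21, 0.09 and 0.27 for numbers 1 to 5. Of the 5 STING-MSC joints, 3 correlated best with the control joint of their own number. A fit with a replicate block gave 246 lower and 39 higher genes. Genes with few reads, which include 68 of the 264 lower and 34 of the 41 higher genes, are the ones that depth limits.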
